A study of Mus musculus with 4 samples.

Results

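Arginine use, arginine recycling and entry into polyamine synthesis were followed across the cell types of mouse tumors through 8 genes, namely Arg1, Arg2, Nos2, Ass1, Asl, Slc7a2, Odc1 and Srm. They were chosen by name, and all 8 were among the 32285 genes of the count matrices. The tumors grew in wild-type (WT) hosts or in hosts lacking Lrrc25 (Lrrc25-/-), a gene of myeloid cells for a membrane protein with leucine-rich repeats. The tumor models were B16F10 melanoma, taken on day 14, and MC38 colon carcinoma, taken on day 26 after inoculation. Each combination of genotype and model was 1 single-cell RNA library, made from a pool of 3 mice with 100 mm3 of each tumor. The labels give no treatment in any group, so the groups differ in host genotype or in tumor model. Bead-isolated CD45+ cells were added 5:1 to the whole suspension, so the balance of immune to tumor cells was set in part by that mix. The sources used here do not give age or sex of the hosts.

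Arginine is used by macrophages along competing routes. Arginase 1 (Arg1) in the cytosol and arginase 2 (Arg2) in mitochondria cut it to ornithine and urea, and inducible nitric oxide synthase (Nos2) turns it into nitric oxide and citrulline. Argininosuccinate synthase (Ass1) and argininosuccinate lyase (Asl) rebuild arginine from citrulline, the cationic amino acid transporter Slc7a2 brings arginine into the cell, and ornithine decarboxylase (Odc1) and spermidine synthase (Srm) lead from ornithine to the polyamines. In tumors, arginase-rich macrophages are known for depleting arginine that T cells need, and nitric oxide from macrophages for effects on both tumor cells and T cells.

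Promoter sequence is shown for Ass1 and Odc1, the 2 of 8 genes with an entry in the RefSeq promoter table (build GRCm38.p6). They are shown because the table held them and not because of their values. In monocytes and macrophages Ass1 was higher in the Lrrc25-/- pool of both models, in B16F10 by a difference that depended on the mix of clusters. Odc1 was higher there in the Lrrc25-/- pool of B16F10 only. Neither was called in the main test of genotype over both models. Each run covers 250 bases before to 50 bases after the annotated start, on the plus strand, 5′ to 3′. Capitals mark the E-box CACGTG and the GC box GGGCGG or its reverse complement CCGCCC. The Ass1 window is chr2:31470020-31470319 and the Odc1 window is chr12:17544623-17544922.

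Ass1: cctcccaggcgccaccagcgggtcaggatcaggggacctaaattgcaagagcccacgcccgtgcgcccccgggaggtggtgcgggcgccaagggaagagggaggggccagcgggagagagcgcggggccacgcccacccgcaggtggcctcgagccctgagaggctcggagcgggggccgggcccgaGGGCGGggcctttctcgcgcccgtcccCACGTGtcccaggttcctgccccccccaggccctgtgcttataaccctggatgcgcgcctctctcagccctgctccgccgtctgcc

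Odc1: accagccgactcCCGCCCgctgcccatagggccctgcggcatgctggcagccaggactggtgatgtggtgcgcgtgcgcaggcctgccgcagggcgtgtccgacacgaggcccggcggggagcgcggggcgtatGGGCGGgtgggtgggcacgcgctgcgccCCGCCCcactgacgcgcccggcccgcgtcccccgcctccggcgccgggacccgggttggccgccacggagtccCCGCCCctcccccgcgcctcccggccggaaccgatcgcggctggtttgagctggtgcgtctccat

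The Ass1 window held 1 E-box, whose first base lies 36 bases before the RefSeq start, and 1 GC box. GENCODE M21 begins Ass1 at 31470207 and Odc1 at 17544794, inside these windows and before the RefSeq starts. The E-box thus lies after the GENCODE start of Ass1. The Odc1 window held 4 GC boxes and no E-box. Of all 32851 windows of this length in the table, 7.15% held CACGTG and 35.7% held GGGCGG on either strand. The motifs did not overlap each other in these windows. Their G and C content was 74% and 78%, against a mean of 53.8% over the table. These are matches of letters in a window and do not show that a factor binds there.

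On GRCm38 (GENCODE M21) Arg1 lies on chromosome 10 from 24915221 to 24927484 on the minus strand and Nos2 on chromosome 11 from 78920787 to 78960254 on the plus strand. Ass1 lies on chromosome 2 from 31470207 to 31520672 and Slc7a2 on chromosome 8 from 40862396 to 40922308, both on the plus strand. Arg2 overlaps the gene Vti1b and an antisense transcript on the opposite strand, and Slc7a2 overlaps a long noncoding RNA on the opposite strand. Whether counting used strand is not given in the sources used here, so reads of such partners cannot be told apart from those of Arg2 and Slc7a2. Arg1, Nos2, Ass1, Asl and Srm overlap no other annotated gene, and Odc1 overlaps 1 small nucleolar RNA gene. The libraries count tags at the 3' end of transcripts, so the values say nothing about splice forms.

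The 4 libraries held 10490 to 18545 barcodes and 105338548 to 138841749 unique molecular identifiers (UMIs, the count of captured RNA molecules), and 9319 to 15792 cells were kept per library. Levels are in CPM, the UMIs of a gene per 1000000 UMIs summed over the cells of a class in a library, with exact Poisson intervals at 95% in parentheses. With 1 library per group these intervals cover counting error only, and variation from mouse to mouse is hidden in the pools. Where 4 values stand in a row they are those of WT and Lrrc25-/- in B16F10 and then of WT and Lrrc25-/- in MC38. Cells were put into classes by marker genes, none of them among the 8. The class of monocytes and macrophages held 3729, 4473, 8368 and 8192 cells, with median UMIs per cell of 7968, 8222, 4524 and 6149. Lrrc25 in that class was 163 and 95.6 CPM in the WT pools and 4.76 and 2.20 CPM in the Lrrc25-/- pools. Barcodes shared between pairs of libraries numbered 84 to 215, or 0.857% to 1.29% of the smaller library. Xist, which is made by female cells, was 0.0311 and 0.0238 CPM in the class in B16F10 and 654 and 664 CPM in MC38, so tumor model goes with sex of the host as well as with cell line and day.

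Arg1 RNA was high in tumor monocytes and macrophages, and its genotype difference ran in opposite directions in the tumor models. In B16F10 it measured 305 CPM (299 to 311) with WT hosts and 896 CPM (887 to 905) with Lrrc25-/- hosts. In MC38 it measured 2485 CPM in the WT pool and 1481 CPM in the Lrrc25-/- pool. The Lrrc25-/- pool was thus above WT in B16F10, with a ratio of 2.94 (2.87 to 3.00), and below it in MC38, with a ratio of 0.596 (0.591 to 0.602). A UMI of Arg1 was seen in 21.9% and 39.2% of cells of the class in B16F10 and in 79.7% and 69.8% in MC38. With each cell thinned to 1000 UMIs, which sets depth equal, the shares were 10.5%, 23.6%, 62.8% and 47.1%. Both scales give the same order of the libraries.

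Arg1 RNA was unevenly spread over the class. The 10% of cells with most Arg1 UMIs held 92.3% and 77.7% of them in B16F10 and 46.0% and 53.1% in MC38. Cells with at least 10 UMIs made up 6.97% and 17.9% of the class in B16F10, and 35.5% and 26.8% in MC38. The B16F10 pools thus held fewer cells with much Arg1 and many with none, and the share of high cells moved with genotype in the same direction as the level.

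**Figure D1:**
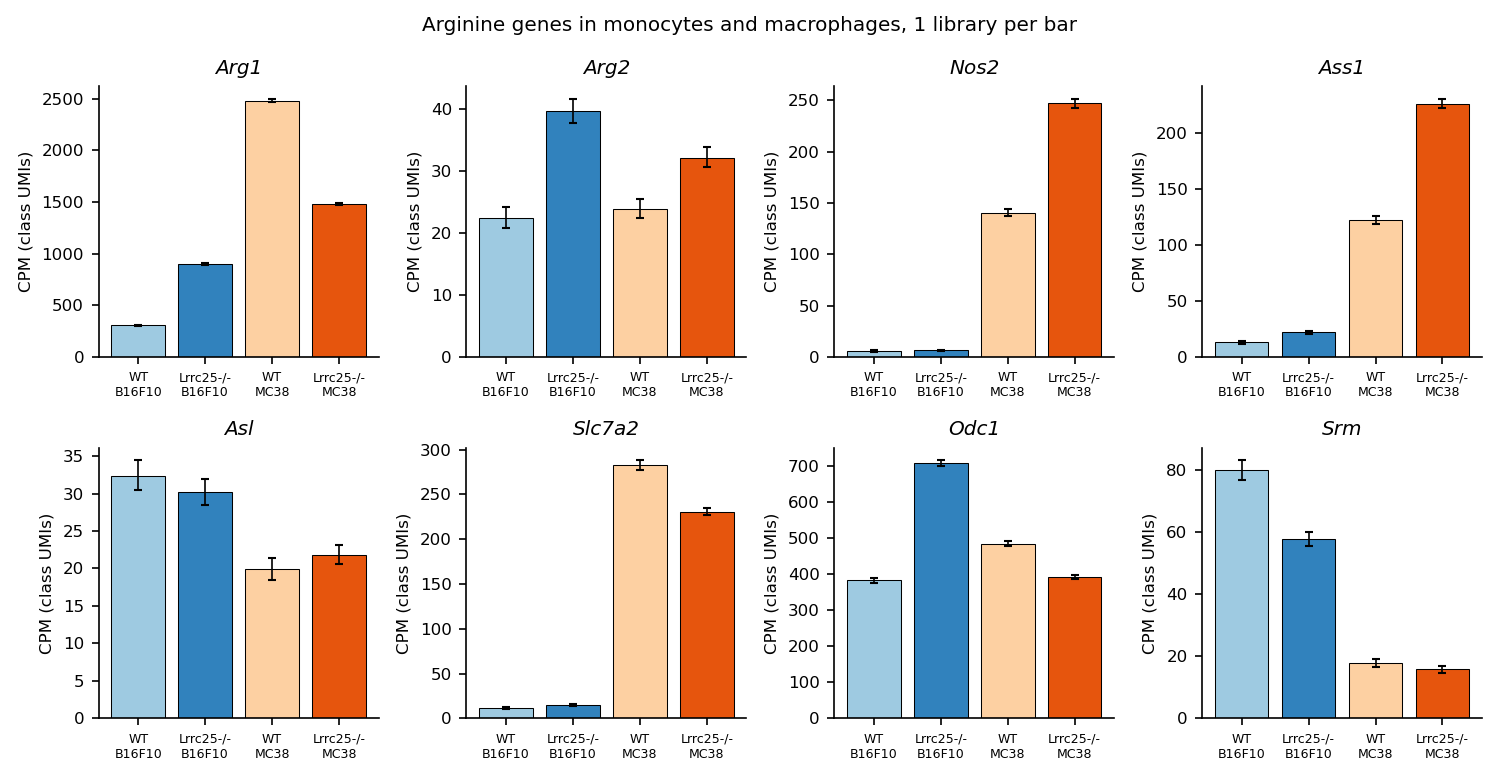
Level of each gene in monocytes and macrophages (vertical axis, CPM of the class, from 0), with 1 bar per library and exact Poisson intervals at 95% that cover counting error only. Arg1 stands at 305 and 896 CPM in B16F10 and at 2485 and 1481 CPM in MC38, and Nos2, Ass1 and Slc7a2 are low in both B16F10 pools and high in both MC38 pools.

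In T cells and in the Sox9, Tnnt2 and Crabp2 cells of MC38, Arg1 kept about the same ratio to macrophage complement RNA as in macrophages. There T cells, which are not a known source of Arg1, had a UMI in 15.7% of cells in the WT and 16.2% in the Lrrc25-/- pool, at median depths of 4164 and 3667 UMIs. Their ratio of Arg1 to the macrophage complement genes C1qa, C1qb and C1qc was 1.07 and 1.23 times that of macrophages in the same library. Free macrophage RNA would give about the same ratio, but so would doublets with macrophages, and the source was not tested. The Sox9, Tnnt2 and Crabp2 cells of MC38, a class named by those 3 genes, were likewise at 1.02 and 1.36 times, with 30.9 and 33.0 CPM. NK cells of the WT MC38 pool were at 4.72 times, with 79.5% of their 78 UMIs in 1 cell. In the WT B16F10 pool several classes stood well above this ratio. B cells had 986 CPM, more than the 305 CPM of monocytes and macrophages, at 34.6 times the ratio, with 94.4% of UMIs in 5 of 60 cells. Neutrophils had 239 CPM at 13.2 times, from 34 UMIs. T cells had 187 CPM at 13.5 times. Of the 715 Arg1 UMIs in T cells 84.9% lay in 18 of 533 cells, and 65.5% of these T cells held a C1q UMI. In the Lrrc25-/- B16F10 pool T cells had 34.1 CPM and 1.77 times the ratio. Neutrophils of that pool had 445 CPM at 8.34 times, with 89.7% of UMIs in 8 of 380 cells. Its B cells had 187 CPM at 5.02 times, from 67 UMIs. Whether the few high cells are doublets that were not removed was not tested. Dendritic cells had 303, 128, 257 and 182 CPM in the 4 libraries, at 20.6, 4.31, 1.67 and 1.82 times the ratio, and in each at least 67.8% of their Arg1 UMIs lay in 5 to 8 cells of 10 or more UMIs.

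Arg2 was highest in neutrophils in every library. Neutrophils had 274 CPM in the WT and 342 CPM in the Lrrc25-/- B16F10 pool, and 1027 and 986 CPM in the MC38 pools, with a UMI in 39.4%, 39.2%, 60.8% and 67.8% of 71, 380, 130 and 211 cells. The ratio of Lrrc25-/- over WT was 1.25 (0.884 to 1.81) in B16F10 and 0.960 (0.794 to 1.16) for MC38, and a genotype difference was not detectable at this depth. T cells stood at 1.498 to 12.3 CPM, with a UMI in 0.718% to 4.88% of cells. In monocytes and macrophages Arg2 was 22.4 and 39.7 CPM in B16F10 (ratio 1.77, 1.62 to 1.93) and 23.9 and 32.2 CPM in MC38 (1.34, 1.24 to 1.46). At a common mix of clusters the B16F10 ratio was 1.14, which ends that call, and the share of cells whose best list was monocyte was 6.09% and 12.4% there. Neutrophil marker RNA in that class moved with it. All 8 neutrophil markers were detected in B16F10 and 7 of 8 in MC38, where Ly6g was at 0, and their summed level was 60.1 and 104 CPM in B16F10 and 42.2 and 57.5 CPM in MC38. Its part in the Arg2 difference was not tested.

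Nos2 in monocytes and macrophages was higher in MC38 than in B16F10. In B16F10 it measured 5.45 CPM (4.67 to 6.32) with WT and 6.30 CPM (5.57 to 7.11) with Lrrc25-/- hosts, against 141 CPM (137 to 144) and 247 CPM (243 to 252) in the MC38 pools. A UMI was seen in 2.47%, 2.97%, 21.4% and 35.3% of cells in the class. T cells, as a class that should lack the gene, had a UMI in 1.88%, 0.0747%, 0.957% and 4.14% of cells. The shares of the MC38 pools and of the Lrrc25-/- B16F10 pool thus lay well above those of T cells. In the WT B16F10 pool the shares lay close together, but its T cells stood at 13.7 times the macrophage C1q ratio for Nos2, from 13 UMIs. They are thus a poor measure of background. After thinning, macrophages and T cells of that pool had a UMI in 0.901% and 0.198% of cells. Whether its macrophage level exceeds background was not tested. The ratio of Lrrc25-/- over WT was 1.16 (0.952 to 1.41) in B16F10 and 1.76 (1.70 to 1.81) in MC38.

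Nos2 was also found in a few stromal cells. Fibroblasts had 121 and 59.0 CPM in B16F10 and 120 and 48.2 CPM in MC38, and endothelial cells of the WT B16F10 pool, the 1 library with at least 50 of them, had 46.0 CPM. In the WT B16F10 pool 35.7% of 70 fibroblasts held a UMI of Nos2, against 2.47% of macrophages at a similar median depth (7692 and 7968 UMIs). The fibroblast values rest on 51 to 70 cells and on 20 to 84 UMIs per library, and in MC38 79.5% of UMIs lay in 3 WT cells and 85% in 1 Lrrc25-/- cell. In MC38 dendritic cells Nos2 was 18.1 CPM in the WT and 70.3 CPM in the Lrrc25-/- pool (ratio 3.89, 2.39 to 6.69), from 19 and 120 UMIs. These levels were 2.07 and 4.21 times those that the macrophage C1q ratio would give. Of the 120 UMIs 39.2% lay in 4 cells. A C1q UMI was held by 56.08% of these dendritic cells in the WT and 78.03% in the Lrrc25-/- pool. The part of macrophage RNA in this difference was not tested.

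Ass1 was higher in the Lrrc25-/- pool in monocytes and macrophages and in dendritic cells of both models. It was lower in plasmacytoid dendritic cells (pDC) of B16F10. In monocytes and macrophages it measured 13.01 CPM (11.8 to 14.3) and 21.7 CPM (20.3 to 23.2) in B16F10, and 122 CPM (118 to 125) and 226 CPM (222 to 230) in MC38. The ratio was 1.67 (1.48 to 1.88) in B16F10 and 1.86 (1.79 to 1.92) in MC38. A UMI was seen in 7.64%, 11.8%, 30.9% and 51.0% of cells, or 1.34%, 2.34%, 9.78% and 18.1% after thinning. In dendritic cells Ass1 was 114 and 218 CPM in B16F10 (ratio 1.91, 1.59 to 2.31) and 191 and 341 CPM in MC38 (1.79, 1.52 to 2.11). In the Lrrc25-/- B16F10 pool 21.7% of the UMIs lay in 7 of 396 dendritic cells. The class joins several kinds of dendritic cells, whose mix was not compared between the pools. Gated apart from these, pDC of B16F10 had 92.6 and 40.3 CPM (0.435, 0.259 to 0.706), from 131 and 138 cells. Both MC38 pools held under 50 pDC. Monocytes and macrophages, like dendritic cells, thus stood higher in the Lrrc25-/- pool of each model. But the B16F10 call in monocytes and macrophages ended with macrophages alone (log2 difference 0.40) and at a common mix of clusters (ratio 1.16). The share of the class whose best list was monocyte was 6.09% and 12.4% in B16F10, and the 8 monocyte markers summed to 778 and 1126 CPM there. T cell marker RNA in monocytes and macrophages, where all 8 markers were detected, was 78.5, 39.3, 15.5 and 37.5 CPM, so it was lower in the Lrrc25-/- pool of B16F10 and higher in that of MC38. Its part in the Ass1 difference was not tested.

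Ass1 was found in lymphocytes as well. Treg cells, which restrain other T cells, had 174 and 284 CPM in B16F10 and 228 CPM in Lrrc25-/- hosts of MC38, with a UMI in 66.7%, 70.1% and 55.2% of cells. The WT MC38 pool held under 50 Treg cells. CD4 T cells had 147, 154, 125 and 146 CPM in the 4 libraries and CD8 T cells had 70.4, 51.7, 28.4 and 46.6 CPM. NK cells stood lower, at 4.92 to 20.1 CPM. All T cells together held 12.5 to 258 times the Ass1 that the macrophage C1q ratio would give. Fibroblasts were lower in the Lrrc25-/- pool, at 216 and 90.8 CPM in B16F10 and 171 and 81.9 CPM in MC38, from 51 to 70 cells each.

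Asl, the partner of Ass1, was even across genotypes. It measured 32.4 and 30.2 CPM in monocytes and macrophages of B16F10 (ratio 0.931, 0.857 to 1.01) and 19.9 and 21.8 CPM in those of MC38 (1.10, 1.00 to 1.21). Melanoma cells had 49.95 and 50.7 CPM. Among the 4 libraries, Asl in monocytes and macrophages was thus lower in both MC38 pools, the reverse of Ass1.

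Slc7a2 was found in MC38 macrophages and dendritic cells and in MC38 stromal and Sox9, Tnnt2 and Crabp2 cells. Monocytes and macrophages had 11.6 CPM (10.5 to 12.9) and 14.4 CPM (13.3 to 15.6) in B16F10, and 283 CPM (278 to 288) and 231 CPM (227 to 235) in MC38. MC38 dendritic cells had 144 and 120 CPM, with 48.0% of UMIs in 5 WT cells and 46.8% in 7 Lrrc25-/- cells. MC38 fibroblasts had 359 and 253 CPM against 11.5 and 9.99 CPM in B16F10 fibroblasts, from 51 to 70 cells each. The Sox9, Tnnt2 and Crabp2 cells had 78.9 and 117.6 CPM, at 22.8 and 31.1 times the level that the macrophage C1q ratio would give. Melanoma cells had 0.348 and 0.615 CPM. The ratio of Lrrc25-/- over WT in monocytes and macrophages was 1.24 (1.09 to 1.41) in B16F10 and 0.817 (0.795 to 0.838) in MC38. At a common mix of clusters these ratios were 0.831 and 0.742. In B16F10 Slc7a2 was higher in the Lrrc25-/- pool in 1 cluster and lower in 2, so its direction there is not settled.

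Odc1 was found in every class, and it was higher in the Lrrc25-/- pool in several immune classes of B16F10. Monocytes and macrophages had 383 and 708 CPM in B16F10, where the ratio was 1.85 (1.81 to 1.89). In MC38 they had 484 and 393 CPM, with a ratio of 0.812 (0.795 to 0.828). T cells of B16F10 went the same way, at 551 and 1082 CPM (1.962, 1.87 to 2.06), as did dendritic cells, at 433 and 958 CPM (2.21, 2.02 to 2.43), and Treg cells, at 637 and 1563 CPM (2.45, 2.17 to 2.78). In MC38, T cells had 911 and 818 CPM and dendritic cells 379 and 200.4 CPM (0.529, 0.456 to 0.612). Melanoma cells, which carry no host genotype, had 199 and 214 CPM. Fibroblasts of B16F10 had 217 and 177 CPM (0.815, 0.655 to 1.01), and B cells 699.7 and 457.6 CPM (0.654, 0.512 to 0.837), so the B16F10 difference was not in every host class.

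Srm was found in tumor cells and in stromal cells of B16F10. Melanoma cells had 160 and 137 CPM and the Sox9, Tnnt2 and Crabp2 cells 97.6 and 104 CPM. Fibroblasts had 143 and 272 CPM in B16F10 and 46.2 and 28.9 CPM in MC38. In B16F10, endothelial cells of the WT pool and pericytes of the Lrrc25-/- pool each had 116 CPM. Monocytes and macrophages had 80.0 and 57.8 CPM in B16F10 (ratio 0.722, 0.683 to 0.763) and 17.7 and 15.8 CPM in MC38. Melanoma marker RNA in that class was 440 and 309 CPM in B16F10, with 7 of 7 markers detected. In MC38 it was 89.3 and 61.4 CPM, with 3 of 7 detected and Tyrp1, Dct, Tyr and Slc45a2 at 0. Only 1 marker reached 20 CPM there. No cells were gated as melanoma in MC38, so the MC38 sum need not be melanoma RNA. The part of melanoma RNA in the Srm level was not tested.

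**Figure D2:**
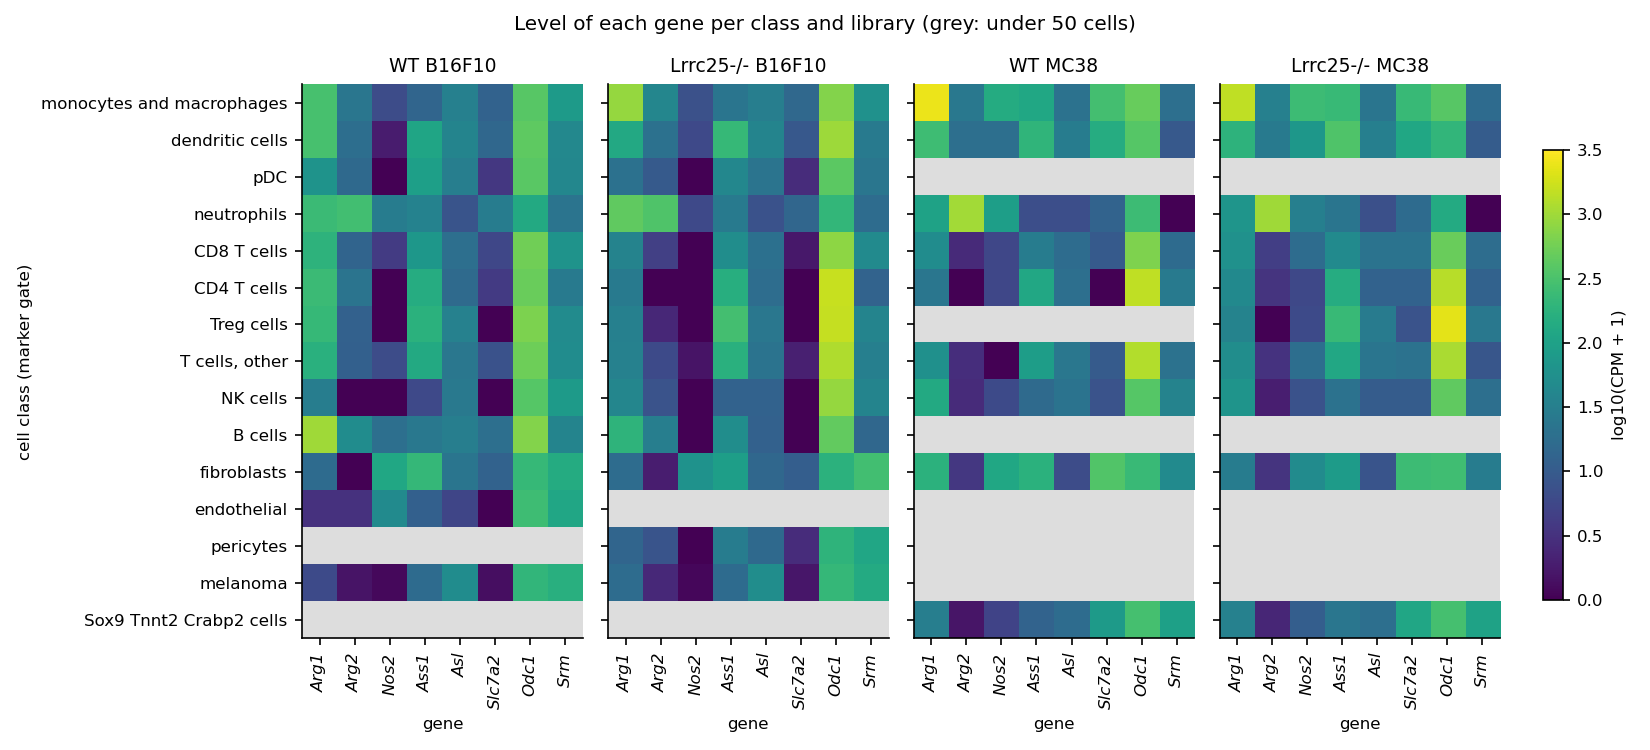
Level of the 8 genes (horizontal axis) in each class with at least 50 cells (vertical axis) in the 4 libraries, as log10 of CPM plus 1, with grey where a class had fewer cells. Arg1 is brightest in MC38 monocytes and macrophages and Arg2 in neutrophils. Odc1 is brightest in CD4 T or Treg cells, except in the WT B16F10 pool, where B cells stand highest at 699.7 CPM.

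A size rule was used to count genotype differences within a model, since 1 library per group allows no test. A gene counted as measured with at least 20 CPM in either pool and 50 UMIs in both together, and as higher or lower with at least a 1.5-fold difference after adding 1 CPM. In monocytes and macrophages of B16F10, 6 of the 8 genes were measured, of which 4 were higher in the Lrrc25-/- pool (Arg1, Arg2, Ass1 and Odc1) and 0 lower. Over all 4670 genes measured there, 4.05% were higher and 0.899% lower. In MC38, 7 of the 8 were measured, 2 were higher (Nos2 and Ass1) and 1 lower (Arg1), where 0.748% of 5746 genes were higher and 2.49% lower. The median log2 difference of the measured members was 0.75 in B16F10 and 0.13 in MC38, beside 0.02 and -0.02 over all genes measured. Of 4201 genes measured in both models, 8 passed in the same direction, among them Ass1, whose B16F10 call ended at a common mix of clusters and with macrophages alone. Another 15 passed in opposite directions, among them Arg1.

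In most other classes, which held fewer cells, a larger share of genes passed the size rule. The Sox9, Tnnt2 and Crabp2 cells were the exception, with 1 member higher (Ass1) and none lower, beside 0.881% and 0.788%. In dendritic cells of B16F10 2 members were higher (Ass1 and Odc1) and 2 lower (Arg1 and Srm), where 7.34% of measured genes were higher and 7.03% lower. In those of MC38 2 were higher (Nos2 and Ass1) and 1 lower (Odc1), beside 4.2% and 6.75%. T cells of B16F10 had 1 higher (Odc1) and 1 lower (Arg1), beside 12.4% and 4.81%, and those of MC38 had 1 higher (Ass1) and none lower, beside 4.23% and 4.19%. Arg1 in B16F10 thus ran opposite to monocytes and macrophages, with ratios of 0.422 in dendritic and 0.182 in T cells, and most of its UMIs in the WT pool lay in 7 dendritic cells and 18 T cells. Treg cells of B16F10 had 2 higher (Ass1 and Odc1) and 1 lower (Arg1), beside 15.9% and 6.19%. Neutrophils of B16F10 had 2 higher (Arg1 and Odc1) and none lower, beside 28.4% and 17.5%, and those of MC38 had none higher and 1 lower (Odc1), beside 16.4% and 13.4%. Fibroblasts of B16F10 had 1 higher (Srm) and 2 lower (Nos2 and Ass1), beside 17.7% and 6.8%, and those of MC38 had none higher and 3 lower (Arg1, Nos2 and Ass1), beside 14.9% and 14.1%. With such backgrounds the counts in Treg cells, neutrophils and fibroblasts say little about the members.

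**Figure D3:**
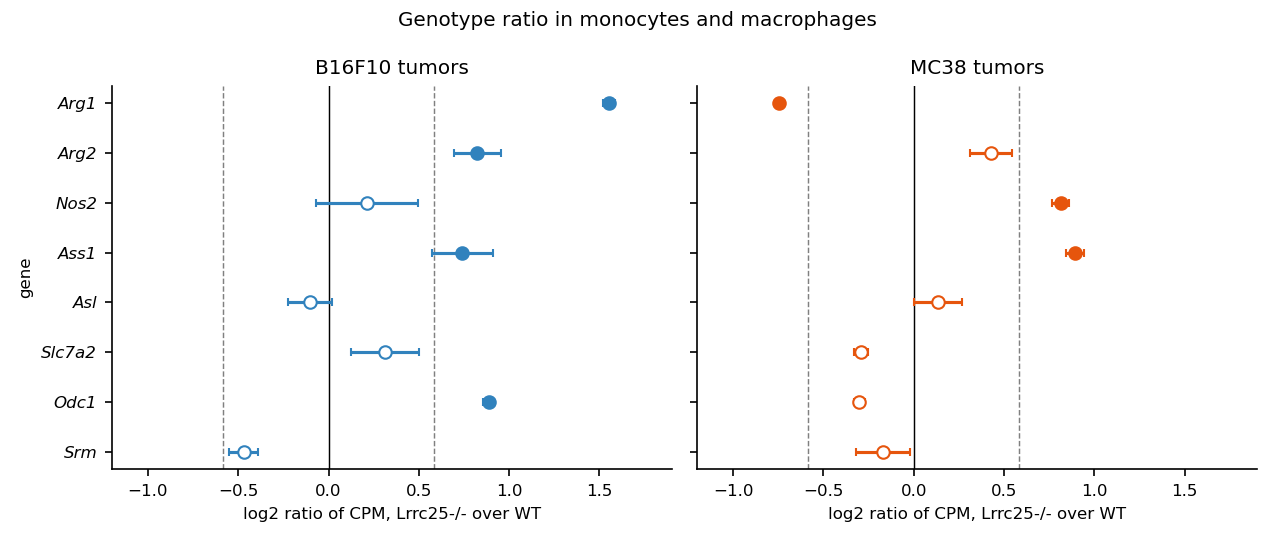
Log2 ratio of CPM, Lrrc25-/- over WT, of each gene in monocytes and macrophages (horizontal axis), for B16F10 and MC38. Bars are intervals of counting error at 95%, filled points passed the size rule, and dashed lines mark 1.5-fold. Arg1 lies to the right in B16F10 and to the left in MC38, and Ass1 to the right in both.

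The replicated contrast of genotype compared the WT and the Lrrc25-/- pools of both models, adjusting for tumor model, in edgeR's quasi-likelihood test with Benjamini-Hochberg adjustment. It called 1 of 14976 genes, or 0.00668%, which was Lrrc25 itself, and 486 genes had an unadjusted p under 0.05. None of the 8 was called. Ass1 had a log2 difference of 0.82 (SE 0.16), higher in 2 of 2 models, with an adjusted p of 1.00 in that test (unadjusted p = 0.00116). The adjusted p of Ass1 was 0.098 with DESeq2, and it ran from 0.00191 to 1.00 over the 8 edgeR settings. Arg2 had 0.62 (SE 0.15), higher in 2 of 2 models, with an edgeR adjusted p of 1.00. Nos2 had 0.55 (SE 0.20, edgeR adjusted p of 1.00), and its direction in B16F10 is not settled, since the ratio of 1.16 became 0.859 at a common mix of clusters and the log2 difference was -0.58 after thinning. For Arg1 the opposite directions gave 0.40 (SE 0.49). A test with 1 residual degree of freedom counts such unlike directions as error.

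The class held 8 clusters, made without the 8 genes, and their mix differed between the pools. In B16F10 a cluster led by Gdf15, Npl and Igf1 held 81.4% of the class in the WT and 65.0% in the Lrrc25-/- pool. A cluster led by the chemokine Ppbp, Chil3 and Ccl24, with the monocyte markers Chil3 and Plac8 among its leading genes, held 13.8% and 31.7%. In MC38 a cluster led by Zdhhc14, Psd3 and Pmepa1 held 57.7% and 47.5%, and a cluster led by Ly6i and Inhba, with the monocyte marker Ly6c2 among its leading genes, held 18.5% and 25.1%. A cluster led by Cald1, Cdh13 and Timp3, with Sox9 among its leading genes and median depths of 990.5 and 1135 UMIs, held 7.43% and 14.3% of the MC38 class. A cluster led by the T cell genes Nkg7 and Trbc2 held 3.89% and 1.70% of the B16F10 class. The share of the class whose best list was monocyte was 6.09% and 12.4% in B16F10 and 4.73% and 6.99% in MC38.

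Arg1 moved with genotype inside the clusters too. In B16F10 it was higher in the Lrrc25-/- pool in 3 of 3 clusters, with 194 and 344 CPM in the cluster led by Gdf15 and 1214 and 2447 CPM in that led by Ppbp. In MC38 it was lower in 5 of 5 clusters, with ratios of 0.536 to 0.723. These counts include the B16F10 cluster led by T cell genes and the MC38 cluster led by Cald1, Cdh13 and Timp3, both of them kept in the class by the gate. With both pools set to a common mix of clusters, the ratio of Arg1 was 1.92 in B16F10 and 0.589 in MC38. That mix was chosen after the data had been seen.

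Ass1 and Nos2 were higher in the Lrrc25-/- pool in 5 of 5 clusters of MC38. Ass1 had 90.2 and 145 CPM in the largest of these and 230 and 406 CPM in the cluster led by Ly6i, and Nos2 had 99.3 and 175 CPM and 203 and 379 CPM. At a common mix the MC38 ratios were 1.70 for Ass1 and 1.73 for Nos2. In B16F10 the Ass1 level differed more between clusters than between pools, at 7.65 and 9.93 CPM in the cluster led by Gdf15 and 44.2 and 51.6 CPM in that led by Ppbp. Its B16F10 ratio at a common mix was 1.16, and that of Arg2 was 1.14, neither past the size rule, while Odc1 kept a ratio of 1.79. The Ass1 and Arg2 calls in B16F10 thus end when the mix of clusters is set equal.

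**Figure D4:**
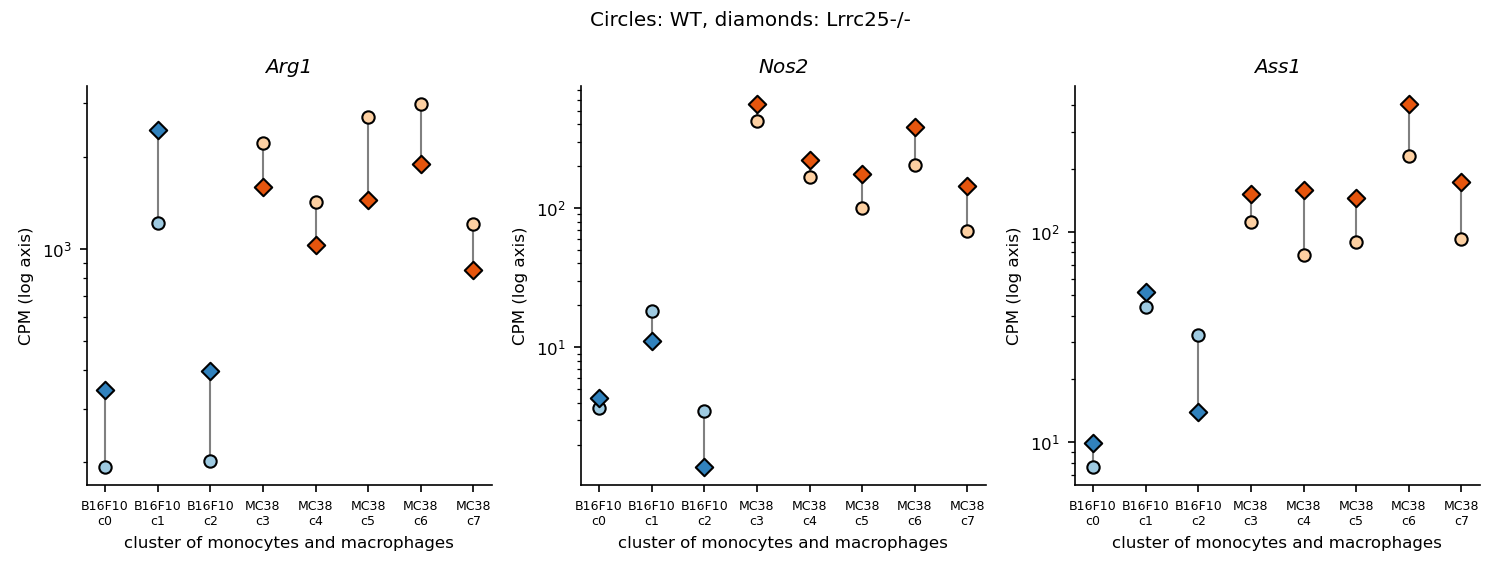
Level of Arg1, Nos2 and Ass1 (vertical axis, CPM, log axis) in each cluster of monocytes and macrophages with at least 50 cells in both pools of a model (horizontal axis, cluster number), with circles for the WT and diamonds for the Lrrc25-/- pool. Diamonds lie above circles for Arg1 in all 3 B16F10 clusters and below them in all 5 MC38 clusters, and above them for Nos2 and Ass1 in all 5 MC38 clusters.

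Nos2, Slc7a2 and Ass1 rose in monocytes and macrophages of MC38 relative to B16F10. In the same edgeR fit, MC38 was above B16F10 by a log2 difference of 4.61 for Nos2 (SE 0.23, adjusted p = 4.54e-05), 3.90 for Slc7a2 (SE 0.21, adjusted p = 4.74e-05) and 2.91 for Ass1 (SE 0.17, adjusted p = 4.98e-05). Arg1 rose by 1.48 (SE 0.50, edgeR adjusted p = 0.0331), a call that ended with DESeq2 (adjusted p = 0.166). Srm fell by 2.42 (SE 0.17, edgeR adjusted p = 7.04e-05), Asl by 0.98 (SE 0.16, adjusted p = 0.00133) and Arg2 by 0.50 (SE 0.15, adjusted p = 0.0228 with edgeR and 0.0619 with DESeq2). Odc1 had -0.65 (SE 0.28, edgeR adjusted p = 0.0809). In all 8 genes but Odc1 and Arg2 both MC38 pools lay on 1 side of both B16F10 pools.

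Of the 8 genes 4 were called higher in MC38 and 3 lower, where the fit called 31.5% of 14976 genes higher and 29.7% lower. Such broad differences hold cell line, day and host sex, which cannot be told apart. The scaling matters here. Without TMM scaling the median gene of at least 20 CPM in a library was 0.44 higher in MC38 on the log2 scale, and with it 0.05. Arg2 had -0.10 by plain CPM and -0.48 with TMM, so its direction rests on a small shift.

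Other genes of the pathway passed the size rule for genotype about as often as genes in general. Of 45 listed genes, 23 were measured in monocytes and macrophages of B16F10, where 1 was higher, the spermine oxidase Smox at 97.4 and 158 CPM, and none was lower. In MC38 19 were measured and 1 was lower, Gatm, which uses arginine to start creatine synthesis, at 193 and 128 CPM. Over all measured genes 4.05% were higher in B16F10 and 2.49% lower in MC38. The median log2 difference of the listed genes was -0.05 in B16F10 and 0.07 in MC38.

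Between tumor models, 38 of the listed genes were tested in edgeR, of which 8 were higher and 21 lower in MC38, beside 31.5% higher and 29.7% lower over all genes tested. All 5 genes of the tetrahydrobiopterin cofactor, which nitric oxide synthases need, fell in MC38. Gch1, the first enzyme of that route, fell by 1.29 (SE 0.15, edgeR adjusted p = 0.000389) and Pts by 1.70 (SE 0.16, adjusted p = 0.000148), while Nos2 itself rose. Gchfr, 1 of these 5 genes, lay near the floor in every library, at 2.52, 0.476, 0.0254 and 0.0607 CPM. Qdpr differed little, at 69.0, 55.3, 44.8 and 49.1 CPM. Melanoma marker RNA in the class was also higher in B16F10, and its part in these differences was not tested. The polyamine oxidase Paox fell by 2.40 and Sat1, which acetylates polyamines for export or breakdown, by 1.38. The arginine transporter Slc7a1 rose by 0.52 and spermine synthase, Sms, by 0.69. Polyamine synthesis thus held members on both sides, with Srm lower and Sms higher.

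Arg1, Nos2 and Ass1 were seen in the same cell more often in MC38 than in B16F10, at shares that depend on depth. In MC38 a UMI of all 3 was found in 776 of 8368 cells (9.27%) with WT and 1571 of 8192 cells (19.2%) with Lrrc25-/- hosts, against 7 of 3729 (0.188%) and 18 of 4473 (0.402%) in B16F10. With cells thinned to 1000 UMIs the shares with all 3 were 1.27% and 2.32% in MC38, from 99 and 176 cells, and 0 and 1 cells held all 3 in B16F10. None of the 3 was found in 71.7% and 54.1% of cells in B16F10 and in 14.2% and 14.6% in MC38. Cells with Arg1 but neither of the others made up 43.6% of the WT and 21.4% of the Lrrc25-/- MC38 pool, or 50.6% and 30.8% after thinning. The cells with Nos2 but no Arg1 were few, at 1.25% and 3.25% without Ass1 and 0.848% and 3.09% with it.

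**Figure D5:**
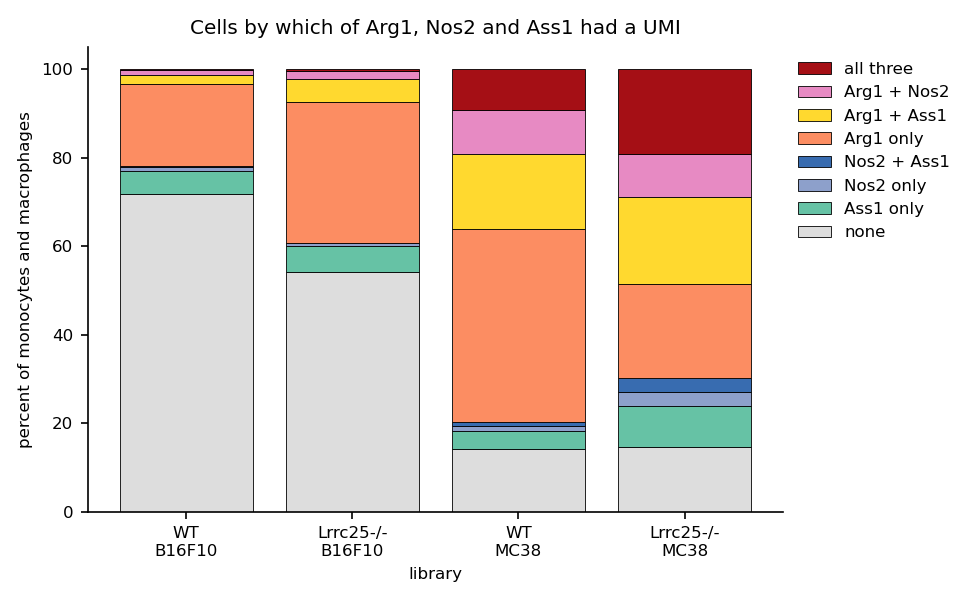
Share of monocytes and macrophages (vertical axis, percent) by which of Arg1, Nos2 and Ass1 had at least 1 UMI, in each library (horizontal axis). All 3 were seen in 9.27% and 19.2% of cells in the MC38 pools and in under 1% in B16F10.

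Arg1 and Nos2 shared cells more often than their own frequencies give. Among cells with a Nos2 UMI, 56.5% and 77.4% held Arg1 in the B16F10 pools and 90.2% and 82.1% in the MC38 pools, against 20.98%, 38.0%, 76.9% and 63.2% of cells without Nos2. Since deeper cells show more of every gene, odds ratios were pooled over 10 strata of depth. The pooled value of Arg1 with Nos2 was 4.86, 5.16, 2.28 and 2.15 across the libraries. The B16F10 values rest on 52 and 103 cells with both.

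In MC38 the odds ratio of Ass1 was higher with Nos2 than with Arg1. The pooled odds ratio of Nos2 and Ass1 was 2.08 and 1.44 in B16F10, from 14 and 23 cells, and 1.95 and 1.53 in MC38. That of Arg1 and Ass1 was 1.30, 1.34, 1.04 and 1.05, so in MC38 Ass1 was seen nearly as often in cells with Arg1 as without at equal depth. Cells of 1 library share their source, and these ratios are descriptions without a test.

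The genes most like each of the 3 were sought among 6553 genes (6554 for Nos2) seen in at least 5% of the class in every library, by the mean over the 4 libraries of Pearson's r across cells. For Arg1 they were the lysosomal protease Ctsl (0.42), podoplanin Pdpn (0.42), fibronectin Fn1 (0.40), osteopontin Spp1 (0.40) and the glycolytic enzyme Pgk1 (0.38), of which Fn1 is also a monocyte marker of the gate. For Nos2 they were the oxidoreductase Ero1l (0.22), Slc7a2 (0.20), Arg1 (0.19), Grina (0.19) and the ferritin heavy chain Fth1 (0.18), so 2 of the 5 belong to the 8 genes. For Ass1 they were the calcium-binding S100a11 (0.26), AA467197 (0.25), Cytip (0.23), the peroxiredoxin Prdx5 (0.23) and Cd52 (0.23). The mean r of Ass1 and Arg1 was 0.05. These values share library and depth and are weak, as sparse counts give.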

How the data were processed

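Single-cell RNA was measured with the SeekOne Digital Droplet 3' kit in 4 libraries, 1 per group, each a pool of 3 mice. The deposited values are raw UMI counts, whole numbers for each gene in each barcode, and every barcode held at least 500 UMIs. Per the submitters' processing notes the authors used build mm10. Sources used here name no aligner, counting tool or cell caller. Positions came from GENCODE M21, in which 31436 of 32285 identifiers had the same name.

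Cells were kept with at least 300 genes, 500 UMIs and at most 20% mitochondrial UMIs. Scrublet (scanpy 1.11.5, Python 3.11.15) called 1.99% of 1 library and 0% of the others by its own threshold, so it had not worked, and the highest scores were removed at 0.5% per 1000 cells. A cell took the class of its highest marker score at a floor of 0.25, a lead of 0.1 over unrelated classes and at least 3 markers. Floor and lead were set after seeing the scores, and 20.8% of cells stayed unassigned. In monocytes and macrophages 151 to 700 cells per library lay just inside the lead and 102 to 441 just outside. Of 24762 gated cells 24470 also lay in Leiden clusters of that name (igraph 0.11.9). Classes rest on rebuilt names. Clusters within monocytes and macrophages used 30 principal components, 15 neighbours and resolution 0.5, without the 8 genes.

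UMIs were summed per class and library. Intervals are exact Poisson, exact binomial or exact conditional for ratios, at 95%, and cover counting error only. The test across genes was edgeR 4.0.16 (R 4.3.3), quasi-likelihood with TMM scaling, filterByExpr and a threshold of 0.05. SEs were taken from its F statistics. It was also run on simulated counts with a fixed dispersion and no tumor model effect, which does not show how it behaves on these data. DESeq2 1.42.0 was an alternative. Each group is 1 pool, so no spread between replicate pools could be measured. The 1 residual degree of freedom holds how far the genotype difference differs between the models. The p-values rest on that and on spread shared across genes.

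The 8 genes, the lists and the tests were chosen with earlier results of these data known. Named were the 8 genes in each class of at least 50 cells, listed pathway genes past the size rule or called, and the 5 genes most like Arg1, Nos2 and Ass1. Cluster-leading genes are given only to name clusters.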

Additional observations from a re-analysis of the deposited data

Results flagged for a closer look

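Arg1 in monocytes and macrophages passed the size rule in opposite directions in the tumor models. The log2 difference, Lrrc25-/- over WT, was 1.55 in B16F10 and -0.75 in MC38. At a common mix of clusters it was 0.94 and -0.76. With 1 pool per genotype and model, this difference between models was not tested.

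Odc1 passed in opposite directions in dendritic cells, with log2 differences of 1.14 in B16F10 (433 and 958 CPM) and -0.92 in MC38 (379 and 200.4 CPM). Of all genes measured in dendritic cells, 7.34% were higher in B16F10 and 6.75% lower in MC38. It did so in neutrophils as well, with 0.65 in B16F10 (134 and 210 CPM) and -0.87 in MC38 (252 and 138 CPM). There 28.4% of measured genes were higher in B16F10 and 13.4% lower in MC38, and the B16F10 ratio of 1.57 had an interval of 0.965 to 2.69. Neither difference between models was tested.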

How the results depend on the processing

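No paired analysis was possible because the labels give no replicate numbers and each group is 1 pool, so tumor model is the only block and is a term of the genotype test itself. Leaving out a pool leaves no residual degree of freedom, so the ratios within each model stand in its place. The count of genes called for genotype was 1, and it was 9 with DESeq2, 96 with no filter on low counts and 20 without 2 clusters led by T cell or Sox9 cell genes, the last chosen after seeing the data. Ass1 was called with no filter (adjusted p = 0.00191) and without those clusters (0.034), Arg2 with no filter (0.0248). The cause was not tested. Of the members past the size rule in B16F10, 4 became 2 (Arg1 and Odc1) with a common mix of clusters, and Ass1 also missed it with macrophages alone (log2 0.40) and, at log2 0.85 but no longer measured, with the margin doubled. In MC38 the same 3 members passed under all 12 alternatives. Odc1 was called lower in MC38 by DESeq2 and in 4 edgeR settings. With macrophages alone the odds ratio of Arg1 and Ass1 in the Lrrc25-/- B16F10 pool was 1.83. After thinning to 1000 UMIs that of Arg1 and Nos2 was 1.81 in the WT MC38 pool, and that of Nos2 and Ass1 was 1.40 in the Lrrc25-/- MC38 and 5.12 in the WT B16F10 pool, the last from 2 cells with both.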
